A study of Rattus norvegicus with 24 samples.

Results

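The 10 genes studied here are genes whose transcription or protein activity is known to follow muscle activity, and they were examined in the tibialis anterior (TA) of aged rats. They are the class IIa histone deacetylases Hdac4, Hdac5 and Hdac9, the disuse transcription factors Dach2 and Runx1, and the immediate early genes Egr1, Fos, Junb, Nr4a1 and Nr4a3. Members were chosen by gene symbol, and 9 of the 10 were found among the 14243 rows of the deposited expression table, each with 1 row. Dach2 was not analysed here. The animals were 12 male Fischer 344 rats aged 23 ± 1 months, and both TAs of each animal were sequenced, which gave 24 limbs. In 9 animals tetrodotoxin (TTX), which blocks nerve conduction, was given to the left common peroneal nerve, so that the left TA was silenced without cutting the nerve. Of these, 3 animals were taken after TTX for 6 to 7 days (atrophy), 3 after the same TTX period and 9 days without TTX (recovery), and 3 after TTX, recovery and a second TTX period of 5 to 6 days (repeated atrophy). The right TA of the 9 animals was the control. In 3 sham animals, which carried no TTX, 1 was taken at each time point and both limbs were sequenced. Values are CPM, counts scaled to the same total in every library. Whole muscle was used, so that fewer cells of a type and less RNA per cell cannot be told apart.

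Class IIa histone deacetylases are repressors that shuttle between cytoplasm and nucleus. Calcium-activated kinases export them, and in the nucleus they hold MEF2 factors inactive. In denervated muscle, HDAC4 is known to repress Dach2 and thereby to release Myog and the acetylcholine receptor genes. Runx1 is a transcription factor that is low in innervated muscle and accumulates after denervation. Fos, Junb and Egr1 are immediate early genes that a contraction or growth signal induces within minutes, and Nr4a1 and Nr4a3 are orphan nuclear receptors that exercise induces and that act on genes of glucose and lipid use.

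The silenced TA had more Runx1 and Hdac4 and less Nr4a1 than control after both atrophy and repeated atrophy. Junb rose and Hdac9 fell after repeated atrophy, and Hdac5 fell after recovery. These are results of a fit that does not pair the limbs of an animal. With limbs paired by animal, the changes after atrophy, that of Junb and that of Hdac5 after recovery did not pass. Egr1, Fos and Nr4a3 did not pass the test in any comparison with control. A gene was called where limma gave a fold of 1.2 or more with an adjusted p (Benjamini-Hochberg) no greater than 0.05, fitted on log2(CPM + 1) over all 14031 rows tested in the 18 limbs of the TTX animals. All 9 genes were tested. After atrophy 2 of 9 were called higher and 1 lower, against 20.3% and 2.33% of all rows. After recovery 0 were called higher and 1 lower, against 4.4% and 3.33%. After repeated atrophy 3 were called higher and 2 lower, against 28.1% and 6.24%. The counts called higher were thus close to what those shares of all rows give for 9 genes.

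**Figure D1:**
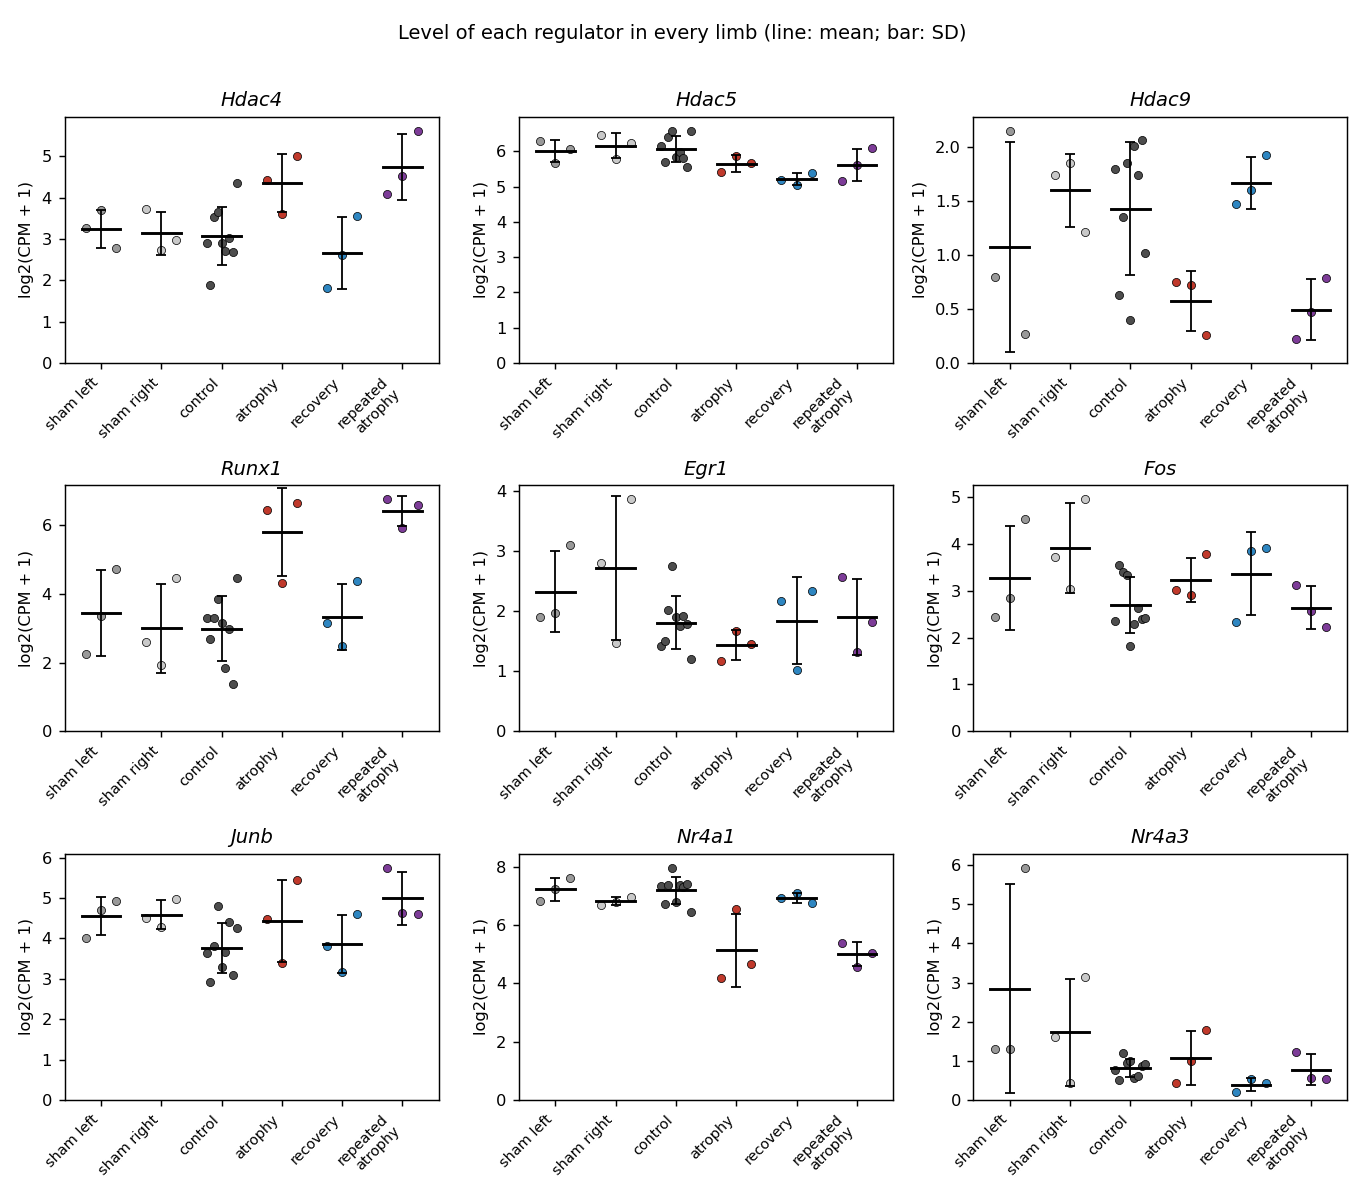
Level of each of the 9 genes in every limb, as log2(CPM + 1) on the vertical axis, by group on the horizontal axis. Points are limbs, the line is the group mean and the bar its SD (n = 9 for control, 3 for every other group). Runx1 and Hdac4 sit higher and Nr4a1 lower after atrophy and repeated atrophy, while 1 of the 3 atrophy limbs lies near the control limbs for Runx1 and Nr4a1.

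Levels between genes were compared per kilobase of the row. In the control limbs Nr4a1 stood highest, at 60.8 ± 19.3 CPM per kilobase (SD, n = 9). Hdac5 followed at 18.2 ± 4.93, and the ranges of Nr4a1 and Hdac5 did not overlap. Junb was at 7.73, Runx1 at 3.97, Fos at 3.76, Hdac4 at 2.08, Egr1 at 1.75, Hdac9 at 0.544 and Nr4a3 at 0.178 CPM per kilobase. From Hdac5 down, each gene's range over the 9 limbs overlapped that of the next. After repeated atrophy Runx1 was the highest of the 9 genes, at 40.5 ± 11.6 CPM per kilobase (SD, n = 3), and Nr4a1 ranked 4 at 12.8 ± 3.65. The range of Runx1 (27.6 to 49.9) overlapped that of Junb, the next gene (13.03 to 29.5), and that of Nr4a1 overlapped those of Hdac5 above it and Hdac4 below it. Hdac9 and Nr4a3 rested on few reads: the steps between low values imply 4 to 84 reads per limb for Hdac9, and for Nr4a3 9 to 37 reads in control and 3 to 11 after recovery.

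Upstream sequences are printed for 4 genes called after repeated atrophy, to set the gene with the most copies of 1 activity-related element beside genes with fewer or no copies. The element is TGACG, the core of the cAMP response element bound by CREB and related factors, through which calcium and cAMP signals reach many immediate early genes. Of the 9 genes, 7 had a RefSeq promoter entry, with Fos and Nr4a3 named only. Capitals mark TGACG on either strand, so that a copy on the opposite strand reads as CGTCA. Each run is the 250 bases before the gene's start, 5′ to 3′ on the gene's strand, in build GRCr8, which is not the build of the expression table. They lie at chr7:134259888-134260137 (+) for Nr4a1, chr9:100197638-100197887 (-) for Hdac4, chr19:40080876-40081125 (+) for Junb and chr11:45421326-45421575 (-) for Runx1.
Nr4a1: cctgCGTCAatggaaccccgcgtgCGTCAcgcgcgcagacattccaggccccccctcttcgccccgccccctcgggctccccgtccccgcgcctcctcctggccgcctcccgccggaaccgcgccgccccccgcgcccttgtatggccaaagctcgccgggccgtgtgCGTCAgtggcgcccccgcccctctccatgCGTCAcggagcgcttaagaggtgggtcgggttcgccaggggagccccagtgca
Hdac4: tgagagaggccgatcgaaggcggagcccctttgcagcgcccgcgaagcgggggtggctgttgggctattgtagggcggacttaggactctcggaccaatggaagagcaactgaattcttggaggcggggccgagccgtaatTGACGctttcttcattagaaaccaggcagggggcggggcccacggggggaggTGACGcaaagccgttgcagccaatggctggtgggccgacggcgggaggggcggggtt
Junb: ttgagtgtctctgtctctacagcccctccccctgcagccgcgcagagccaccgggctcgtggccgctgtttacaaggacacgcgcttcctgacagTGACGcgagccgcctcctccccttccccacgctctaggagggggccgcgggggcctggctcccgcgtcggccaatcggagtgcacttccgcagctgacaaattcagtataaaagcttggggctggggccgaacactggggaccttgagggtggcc
Runx1: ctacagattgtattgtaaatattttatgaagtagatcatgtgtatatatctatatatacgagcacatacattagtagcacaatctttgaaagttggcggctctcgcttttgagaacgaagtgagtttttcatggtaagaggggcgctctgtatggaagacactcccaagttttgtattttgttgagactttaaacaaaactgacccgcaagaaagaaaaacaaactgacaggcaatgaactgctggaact

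Nr4a1 held 4 copies of TGACG, at -246, -226, -82 and -53 from the start, and 0.173% of the 33469 RefSeq promoters held 4 or more. Hdac4, Hdac5 and Egr1 held 2 copies each (3.98% of promoters held at least 2), Junb held 1 (18.2% held at least 1), and Hdac9 and Runx1 held 0. Copies in Hdac4 began at -109 and -57. None of the 7 held the full element TGACGTCA, which contains TGACG and was in 1.59% of promoters. Of the other motifs searched on both strands, TATAAA was in Junb (12.9% of promoters), the CArG box of SRF was in Egr1 with 2 copies (0.021% held at least 2), and a MEF2 site was in Hdac5 (2.96%). Nr4a1, with 4 copies, fell and Hdac4, with 2 copies, rose in the silenced TA, and any part of the element in these changes was not tested. A match of letters is a description and not a bound site, and the motifs were chosen with results of these data known.

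The steps between low values imply 18900000 to 30900000 reads in the 24 libraries, so that 1 read is worth 0.0324 to 0.053 CPM. Markers of muscle fibres were present in every group, with a sum of 63156 to 125450 CPM in control and 91111 to 107130 CPM in recovery limbs, 47520 to 74445 CPM after atrophy and 52647 to 77856 CPM after repeated atrophy, and 0 of 6 called against control. Of 4 satellite cell markers, Myf5 was called higher after atrophy and repeated atrophy (by 2.63 and 3.05 on the log2 scale), and Cdh15 lower after recovery (block fit adjusted p = 0.187, not called) and repeated atrophy. The part of these cells in the values below was not tested. Over all rows the median log2 fold change stood at 0.22 in atrophy, 0.02 in recovery and 0.20 in repeated atrophy. When libraries were rescaled by a trimmed mean of ratios, that median was 0.00, 0.01 and -0.01, and calls split into 4.73% higher and 4.95% lower after atrophy and 13.1% higher and 12.1% lower after repeated atrophy. Animal 2 of the atrophy group stood closer to control than animals 1 and 3 for Runx1, Hdac4 and Nr4a1. Pairing limbs by animal (the animal as a block), limma called 0% of rows for atrophy, 0.0641% for recovery and 27.1% for repeated atrophy. For atrophy that was 0 of 9 genes, with 5 at an unadjusted p under 0.05.

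Hdac4 (rn7, chr9:92507609-92750165, minus strand), the repressor named above, was at 20.6, 11.2 and 30.9 CPM in the limbs of atrophy animals 1, 2 and 3. It was at 15.95, 21.95 and 48.0 CPM in those of repeated atrophy animals 1, 2 and 3. In the 9 control limbs it ranged from 2.71 to 19.5 CPM with a median of 6.42, and the highest control limb, the right TA of atrophy animal 3, lay within the range of both silenced groups. The log2 fold change was 1.28 ± 0.45 (SE) after atrophy (adjusted p = 0.0468) and 1.67 ± 0.45 after repeated atrophy (adjusted p = 0.0076), a 3.19-fold rise. Within animals the left limb was higher than the right in 6 of 6 atrophy and repeated atrophy animals, by 0.97 ± 0.50 and 1.72 ± 0.64 on the log2 scale (SD, n = 3 each). The atrophy value was not called in the block fit (adjusted p = 0.204) or when any 1 of 7 of the 9 TTX animals was left out (atrophy animals 1 and 3, each recovery animal, repeated atrophy animals 1 and 2, adjusted p = 0.0555 to 0.235). Without repeated atrophy animal 3 the repeated atrophy value was 1.31 with an adjusted p of 0.0684. Rescaled, the change was 0.94 after atrophy (adjusted p = 0.144, not called) and 1.32 after repeated atrophy (adjusted p = 0.0228).

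Hdac5 (rn7, chr10:87152978-87187896, minus strand), the most abundant of the 3 class IIa genes, was lower after recovery. It was at 35.7, 31.9 and 40.6 CPM in the limbs of recovery animals 1, 2 and 3, and between 46.5 and 95.02 CPM in the control limbs with a median of 61.8. The groups did not overlap, as for 10.4% of all rows in that comparison. The log2 fold change was -0.86 ± 0.22 (SE, adjusted p = 0.0249), and in the block fit -0.58 with an adjusted p of 0.206. Without recovery animal 1, recovery animal 2 or repeated atrophy animal 2 it was not called (adjusted p = 0.128, 0.11 and 0.0552). After atrophy (49.9 ± 8.24 CPM, SD, n = 3) and repeated atrophy (49.9 ± 16.1) its mean lay between those of recovery and control and was not called. Rescaled, the atrophy value was called (-0.77, adjusted p = 0.0251). For repeated atrophy the block fit called it (-0.60, adjusted p = 0.0469), as did the rescaled fit (-0.83, adjusted p = 0.0056). The left limb was also lower than the right in 3 of 3 sham animals, by 0.16 ± 0.05 on the log2 scale (SD). It was lower in 8 of 9 TTX animals, with a mean left minus right difference of -0.54 in atrophy, -0.58 in recovery and -0.60 in repeated atrophy animals, none of which was called apart from that of sham animals (adjusted p = 0.707, 0.804 and 0.276). The recovery limbs carried more fibroblast marker RNA, with 4 of 5 markers called higher and a sum of 1022 to 1918 CPM against 194 to 528 CPM in control, and 4 of 8 macrophage and leukocyte markers called higher, against 4.4% of all rows. In the block fit none of these 8 calls remained (fibroblast markers, adjusted p = 0.0798 to 0.175). The part of these cells in the Hdac5 value was not tested.

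Hdac9 (rn7, chr6:50763590-51325172, minus strand), the third class IIa gene, was low in every limb. After repeated atrophy it was at 0.167, 0.390 and 0.725 CPM in animals 1, 2 and 3, and in control it ranged from 0.318 to 3.19 CPM with a median of 2.36. The lowest 2 control limbs lay within the range of the silenced limbs, so the groups overlapped. The log2 fold change was -0.94 ± 0.30 (SE, adjusted p = 0.0232) after repeated atrophy, and after atrophy it was -0.86 ± 0.30 with an adjusted p of 0.0501, just past the threshold, and it was called without atrophy animal 2 or repeated atrophy animal 1 (adjusted p = 0.0161 and 0.0281). At such levels log2(CPM + 1) understates a change: mean CPM was 1.91 in control, 0.509 after atrophy and 0.428 after repeated atrophy. Without repeated atrophy animal 1 or 2 the repeated atrophy value was not called (adjusted p = 0.0521 and 0.0983). Its left minus right difference in repeated atrophy animals was not called apart from that in sham animals (-0.79 and -0.53 on the log2 scale, difference -0.25 ± 0.40, adjusted p = 0.739).

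Runx1 (rn7, chr11:31843764-31935432, minus strand) showed the largest change of the 9 genes. It was at 85.5, 19.02 and 98.9 CPM in the limbs of atrophy animals 1, 2 and 3, and at 106.6, 58.9 and 94.1 CPM in those of repeated atrophy animals 1, 2 and 3. Control limbs ranged from 1.59 to 21.1 CPM with a median of 7.95. All 3 repeated atrophy limbs were above every control limb, as for 20.4% of all rows that did not overlap in either direction, and limbs of atrophy animals 1 and 3 were too, while that of animal 2 was not. For atrophy 5.27% of rows did not overlap. Its log2 fold change was 2.81 ± 0.56 (SE, adjusted p = 0.0065) after atrophy and 3.42 ± 0.56 (adjusted p = 3.1e-04) after repeated atrophy, a 10.7-fold rise. In the block fit the repeated atrophy value was 3.13 (adjusted p = 0.0052), and the atrophy value of 2.16 was not called (adjusted p = 0.151), nor was it without atrophy animal 1 (2.53, adjusted p = 0.13). After recovery Runx1 was at 7.90, 4.58 and 19.6 CPM in animals 1, 2 and 3, within the control range, although the left limb of animal 3 was 12.3 times its own right limb. The difference from control was 0.34 ± 0.56 (adjusted p = 0.753) and in the block fit 1.27 ± 0.57 (adjusted p = 0.274). The right limbs of these animals were at 2.58, 6.86 and 1.59 CPM.

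**Figure D2:**
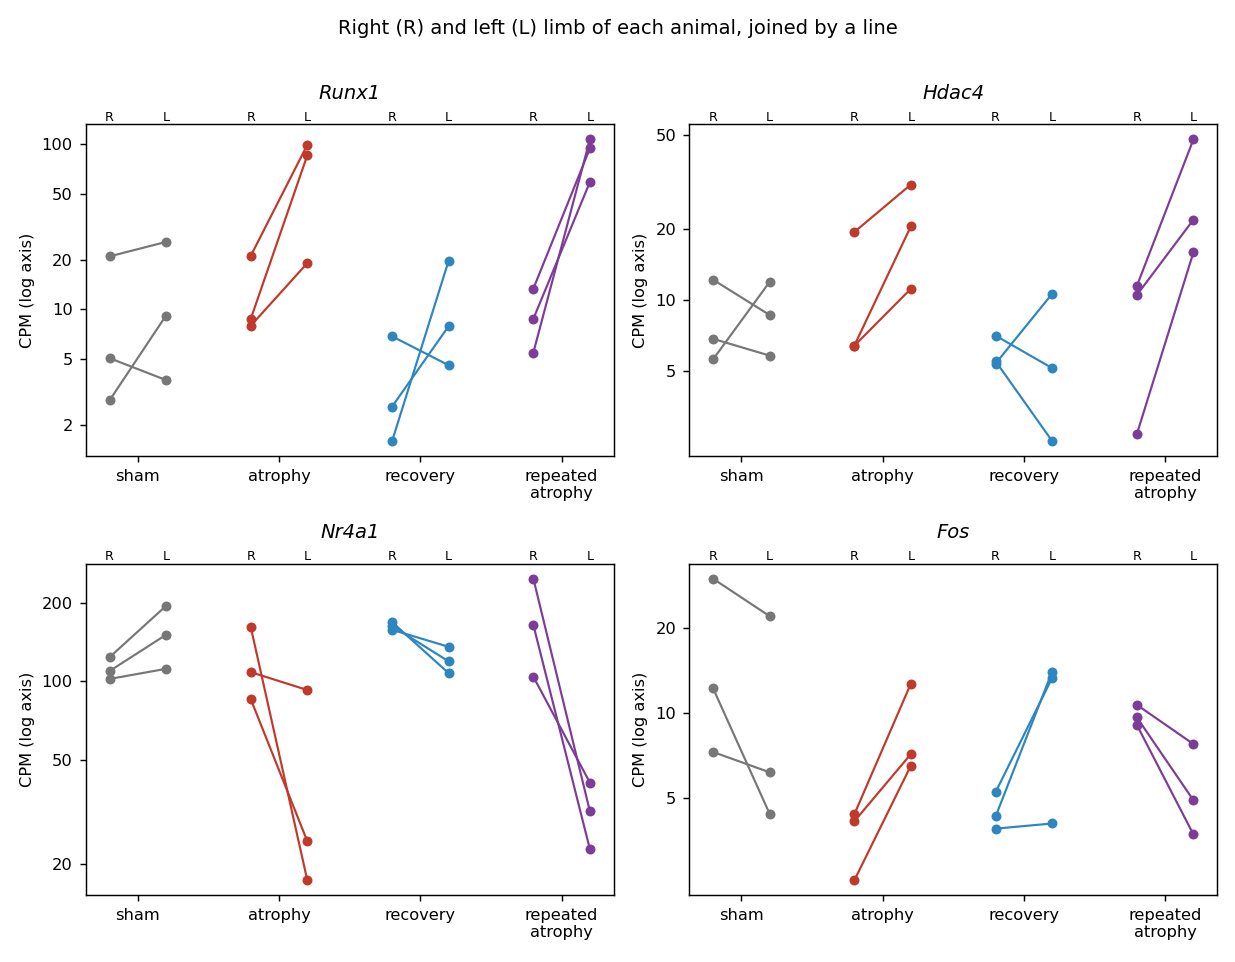
CPM on a log axis in the right (R) and left (L) limb of each animal for Runx1, Hdac4, Nr4a1 and Fos, with a line joining the limbs of 1 animal, by animal group on the horizontal axis. Left limbs were silenced in the TTX groups. Runx1 and Hdac4 lines rise and Nr4a1 lines fall in 3 of 3 repeated atrophy animals, and Fos lines rise in 6 of 6 atrophy and recovery animals and fall in 3 of 3 repeated atrophy and 3 of 3 sham animals.

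Nr4a1 (rn7, chr7:132381391-132389300, plus strand), the nuclear receptor whose upstream sequence holds the 4 copies of TGACG, fell after each TTX period. In the limbs of atrophy animals 1, 2 and 3 it was at 17.3, 92.7 and 24.4 CPM. In those of repeated atrophy animals 1, 2 and 3 it was at 40.9, 22.7 and 31.8 CPM, below every control limb (85.5 to 248 CPM, median 161). In that comparison 20.4% of all rows did not overlap in either direction. It fell by 2.05 ± 0.36 (SE, adjusted p = 0.0051) after atrophy and by 2.19 ± 0.36 (adjusted p = 3.3e-04) after repeated atrophy on the log2 scale. In the block fit the second was -2.35 (adjusted p = 0.0064) and the first -1.72 (adjusted p = 0.151, not called), and without atrophy animal 1 the first was -1.56 (adjusted p = 0.13). After recovery it was at 119, 136 and 108 CPM, within the control range, and the difference of -0.26 ± 0.36 was not called (adjusted p = 0.703). The left limb was the lower of the pair in 9 of 9 TTX animals, by 1.72 ± 1.46 (atrophy), 0.44 ± 0.22 (recovery) and 2.35 ± 0.89 (repeated atrophy) on the log2 scale (SD, n = 3 each), and it was the higher in 3 of 3 sham animals. The left minus right difference of the repeated atrophy animals lay 2.76 ± 0.59 (SE) below that of the sham animals on the log2 scale (24 limbs, animal as a block, adjusted p = 0.0365).

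Junb (rn7, chr19:23176265-23178052, plus strand), a partner of Fos in the AP-1 factor, was at 52.8, 23.7 and 23.3 CPM in repeated atrophy animals 1, 2 and 3 and at 21.2, 9.57 and 42.3 CPM in atrophy animals 1, 2 and 3. Control limbs ranged from 6.62 to 26.8 CPM with a median of 11.7, so limbs of animals 2 and 3 of the repeated atrophy group lay within the control range. The log2 fold change was 1.22 ± 0.43 (SE, adjusted p = 0.0334) after repeated atrophy and 0.67 ± 0.43 (adjusted p = 0.271) after atrophy. The repeated atrophy value was not called in the block fit (adjusted p = 0.155), when rescaled (0.86, adjusted p = 0.133) or without repeated atrophy animal 1 (0.74, adjusted p = 0.252). Nor was it without repeated atrophy animal 2, atrophy animal 1 or recovery animal 1 (adjusted p = 0.0739, 0.0546 and 0.057). Both limbs of the sham animals were at 15.2 to 30.6 CPM, a range that holds repeated atrophy animals 2 and 3.

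Fos (rn7, chr6:105121170-105124037, plus strand) differed from control by 0.54 ± 0.38 in atrophy limbs, 0.67 ± 0.38 in recovery limbs and -0.05 ± 0.38 in repeated atrophy limbs on the log2 scale (SE), with none called (adjusted p = 0.32, 0.289 and 0.94). For repeated atrophy the block fit gave -0.79 (adjusted p = 0.0728), and with rescaling as well it gave -1.10 and a call (adjusted p = 0.0256). Right limbs were at 10.7, 9.63 and 9.05 CPM in repeated atrophy animals 1, 2 and 3 and between 2.54 and 5.23 CPM in the right limbs of the 6 atrophy and recovery animals. A limma F-test over the 3 time points of the control limbs gave an adjusted p of 0.141. That test called 0% of 13600 rows, with 1892 at an unadjusted p under 0.05. The left limb was the higher of the pair in 6 of 6 atrophy and recovery animals and the lower in 3 of 3 repeated atrophy animals, at 7.75, 4.89 and 3.70 CPM in animals 1, 2 and 3. In the block fit, the left minus right difference after repeated atrophy was 1.70 ± 0.42 (SE) below that after recovery, which did not pass (adjusted p = 0.106). In the sham animals the left limb was also the lower in 3 of 3, by 0.64 ± 0.58.

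Egr1 (rn7, chr18:26463333-26465532, plus strand), a zinc finger factor, was at 1.26, 2.19 and 1.76 CPM in atrophy animals 1, 2 and 3 and at 4.94, 1.49 and 2.56 CPM in repeated atrophy animals 1, 2 and 3. Control limbs ranged from 1.31 to 5.73 CPM with a median of 2.45, and the groups overlapped. Differences from control were -0.37 ± 0.32 in atrophy limbs, 0.03 ± 0.32 in recovery limbs and 0.10 ± 0.32 in repeated atrophy limbs on the log2 scale (SE, adjusted p = 0.428, 0.965 and 0.855). Nr4a3 (rn7, chr5:62361645-62401485, plus strand), the receptor related to Nr4a1, was at 0.340, 0.999 and 2.44 CPM in atrophy animals 1, 2 and 3 and ranged from 0.414 to 1.28 CPM in control. Its log2 fold change was 0.25 ± 0.22 after atrophy and -0.05 ± 0.22 after repeated atrophy, with adjusted p of 0.44 and 0.905. After recovery it was at 0.152, 0.450 and 0.340 CPM in animals 1, 2 and 3, a difference of -0.43 ± 0.22 (adjusted p = 0.228). As for Hdac9, log2(CPM + 1) understates a change at this level: mean CPM was 0.782 in control and 0.314 after recovery. The left limb was the lower in 3 of 3 recovery animals, and the block fit did not call it (adjusted p = 0.594). With 3 to 11 reads a limb after recovery, depth limits what can be said of Nr4a3.

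**Figure D3:**
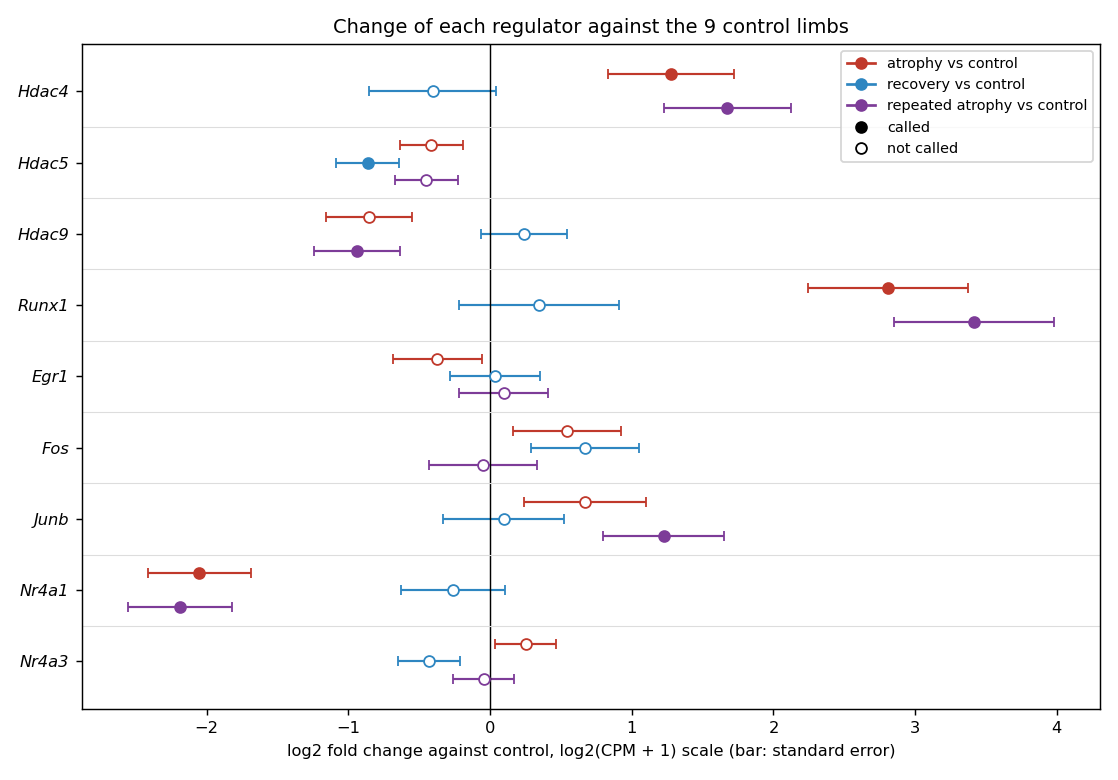
Log2 fold change against the 9 control limbs on the log2(CPM + 1) scale (horizontal axis) for each gene (vertical axis) after atrophy, recovery and repeated atrophy. Bars are standard errors, and filled points were called. Filled points stand furthest from 0 for Runx1 (2.81 and 3.42) and Nr4a1 (-2.05 and -2.19), and Hdac5 is the 1 gene called after recovery.

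Between silenced and recovered limbs the same 4 genes were called in both comparisons. Recovery against atrophy had Hdac9 and Nr4a1 higher and Hdac4 and Runx1 lower (1.09 ± 0.37, 1.79 ± 0.45, -1.68 ± 0.55 and -2.47 ± 0.69, adjusted p = 0.0493, 0.0144, 0.0408 and 0.0226), against 3.34% of all rows higher and 14.5% lower. Repeated atrophy against recovery had Hdac4 and Runx1 higher and Hdac9 and Nr4a1 lower (2.08 ± 0.55, 3.07 ± 0.69, -1.18 ± 0.37 and -1.93 ± 0.45, adjusted p = 0.0104, 0.0047, 0.0263 and 0.0057), against 21% and 6.29%. The comparisons share the recovery limbs. In the first, all 4 calls were lost without atrophy animal 1 or 3 or recovery animal 1 or 2 (adjusted p = 0.0528 to 0.195). Without atrophy animal 1 Nr4a3 was called lower (-1.003, adjusted p = 0.0367). Hdac9 was also lost without recovery animal 3 or repeated atrophy animal 2 or 3, and Hdac4 without repeated atrophy animal 2. Rescaled, Hdac4 and Hdac9 were not called in the first (-1.37 and 1.23, adjusted p = 0.0776 and 0.0561). In the second, Hdac4 was lost without repeated atrophy animal 3 or recovery animal 1 (adjusted p = 0.0577 and 0.0705), and Hdac9 without repeated atrophy animal 1 or 2 or recovery animal 2 or 3. When left minus right differences were tested (the block), 0 of 9 genes were called in either, and 0.0143% and 0.0855% of all rows were. For recovery against atrophy that moved Runx1 to -0.89, Hdac9 to 0.22, Hdac4 to -1.10 and Nr4a1 to 1.28. For repeated atrophy against recovery it moved Runx1 to 1.86 and Hdac9 to -0.51, and left Hdac4 at 1.85 and Nr4a1 at -1.92. Of 5 fibroblast markers, 4 were called higher for recovery against atrophy and 3 lower for repeated atrophy against recovery. In the latter, 2 of 8 macrophage and leukocyte markers were called lower. The block fit called 0 of these markers in either, and the part of these cells was not tested. Repeated atrophy against atrophy gave 0 calls among the 9 genes in limma and 0 at an unadjusted p under 0.05 (884 of all rows), against 0.0143% of rows higher and 0.0214% lower (0% with the block). Runx1 differed by 0.61 ± 0.69, and in the block fit Fos differed by -1.82 ± 0.42 (adjusted p = 0.675), the 1 gene there at an unadjusted p under 0.05. A value that misses the threshold does not show that the TTX periods acted alike.

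Limbs without TTX gave no calls. Sham left limbs against control, sham left against sham right limbs, and control against sham right limbs had 0 of 9 genes called in limma, as they had 0% of all rows (0 of 13822, 13483 and 13848). At an unadjusted p under 0.05 there were 2 genes in the first (Junb and Nr4a3), 2 in the second (Fos and Nr4a1) and 4 in the third (Egr1, Fos, Junb and Nr4a3), against 13.8%, 4.27% and 8.17% of all rows (1904, 576 and 1132 rows). In the third all 4 were lower in control than in sham right limbs, by 0.91, 1.22, 0.82 and 0.91 on the log2 scale (adjusted p = 0.594 each). Without sham animal 3 the values were -0.34, -0.69, -0.63 and -0.19, and without sham animal 2 they were -1.53, -1.65, -0.98 and -1.56. Runx1 and Hdac4 were at 12.8 ± 11.4 and 8.81 ± 3.07 CPM in sham left limbs (SD, n = 3). For Hdac4 the 3 limbs lay within the control range, and for Runx1 that of sham animal 3 (25.6 CPM) lay above it.

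Genes that denervation is known to induce rose with Runx1 and Hdac4. Of 7 such genes, 6 were called higher after atrophy and 7 after repeated atrophy, against 0 in the recovery limbs, with 0 lower. Of all rows 20.3%, 28.1% and 4.4% were called higher in these comparisons. All 7 were called in the block fit after repeated atrophy and 0 after atrophy. Rescaled, Ncam1 was not called after atrophy. Their median log2 fold change was 2.78 and 4.04, against 0.22 and 0.20 for all rows. After repeated atrophy the acetylcholine receptor subunits Chrna1 and Chrnd rose by 4.49 ± 0.65 and 4.27 ± 0.63, Chrng, the embryonic subunit, by 4.15 ± 0.77, and Gadd45a, a stress-response gene, by 4.04 ± 0.59 on the log2 scale (SE). Myog, the myogenic factor upstream of these receptors, went from 57.4 ± 35.6 CPM in control (SD, n = 9) to 465 ± 299 after atrophy and 528 ± 109 after repeated atrophy (n = 3 each).

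Genes of glucose and lipid use that are linked to Nr4a1 mostly fell with it. Of 9, 6 were called lower and 1 higher after atrophy, 0 after recovery, and 6 lower and 3 higher after repeated atrophy. Of all rows 2.33% and 6.24% were called lower in the TTX periods and 20.3% and 28.1% higher, the last near the 3 of 9 here. The median log2 fold change of the list was -1.18 and -1.56, against 0.22 and 0.20 for all rows. Fbp2, the muscle fructose bisphosphatase, was at 94.95 ± 40.0 CPM in control and 2.75 ± 0.396 CPM after repeated atrophy, a log2 fold change of -4.49 ± 0.70. Eno3, Pfkm and Pygm, enzymes of glycolysis and glycogen breakdown, fell by 2.14, 1.67 and 1.59. Ucp3, Prkag3 and Phka1 did not follow the list: they rose by 2.13, 1.86 and 1.08 after repeated atrophy, and Phka1 was not called when rescaled, nor was Ucp3 after atrophy.

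**Figure D4:**
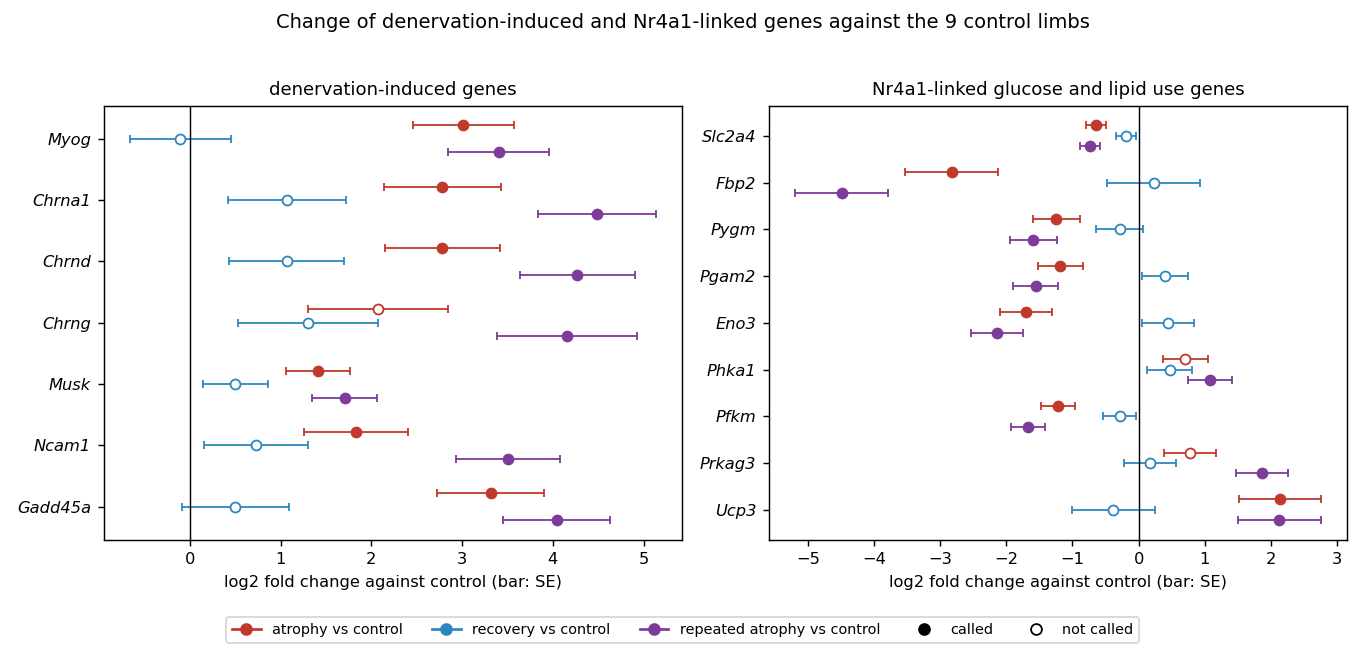
Log2 fold change against the 9 control limbs (horizontal axis, bars are standard errors, filled points were called) for 7 denervation-induced genes and 9 Nr4a1-linked genes after atrophy, recovery and repeated atrophy. The 7 genes on the left lie above 0 after both TTX periods, while 6 of the 9 on the right lie below 0 and Phka1, Prkag3 and Ucp3 above it.

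Other immediate early genes did not move one way. Of 22 tested, 5 were called higher and 0 lower after atrophy, and 5 higher and 2 lower after repeated atrophy, against 20.3% and 28.1% of all rows higher and 2.33% and 6.24% lower. Maff, Ier5, Myc and Btg2 rose by 2.04, 1.97, 1.65 and 1.503 after repeated atrophy, and Jun, the partner of Fos and Junb, by 1.11. Dusp1, a phosphatase of MAP kinases, fell by 1.27 and Arc by 1.00 (block fit adjusted p = 0.0509, not called). After atrophy Maff and Jun were not called when rescaled. In the calcineurin, CREB and SRF list, 2 of 17 were called higher and 1 lower after atrophy, and 1 higher and 4 lower after repeated atrophy, against 20.3% and 28.1% of all rows higher and 2.33% and 6.24% lower. Rescaled, the counts were 1 higher and 3 lower after atrophy (Elk4 lost, Srf and Ppp3cb gained) and 1 higher and 5 lower after repeated atrophy, and 2 were lower after recovery in place of 0. Rcan1, a calcineurin inhibitor, rose by 2.30 and 2.39 after the TTX periods, and after repeated atrophy Ppargc1a, Nfatc1 and Srf fell by 1.17, 1.05 and 0.80, of which Ppargc1a was not called in the block fit (adjusted p = 0.0676), nor was Ppp3r1 among the 4 lower (adjusted p = 0.106).

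Among MEF2 factors and the kinases that export class IIa deacetylases, 1 of 15 was called higher and 2 lower after atrophy, 0 higher and 2 lower after recovery, and 4 higher and 3 lower after repeated atrophy. The shares called higher were below the 20.3% and near the 28.1% of all rows after atrophy and repeated atrophy, and 2.33%, 3.33% and 6.24% of all rows were called lower after atrophy, recovery and repeated atrophy. Both recovery calls, Camk1 and Sik3, were lost in the block fit (adjusted p = 0.221 and 0.269), and the 1 higher call after atrophy, Camk2b, when rescaled. After repeated atrophy Camk1d, Mef2a and Sik1 rose by 1.42, 1.31 and 1.08, and Camk2a fell by 1.23. Rescaled, Sik1 was not called and Prkd2 was called lower (-0.55), and in the block fit Camk1, 1 of the 3 lower, was not (adjusted p = 0.269). Of the other kinases of the Camk2 family, Camk2b rose by 0.97 and Camk2g fell by 0.96. Of 6 other histone deacetylases, 2 were called higher after atrophy and 4 after repeated atrophy (Hdac1 by 0.92, Hdac2 by 0.87, Hdac8 by 0.56 and Hdac3 by 0.53), against 20.3% and 28.1% of all rows. In the block fit Hdac1 and Hdac8 were not called after repeated atrophy (adjusted p = 0.053 and 0.0729). Rescaled, Hdac1 and Hdac2 were not called after atrophy nor Hdac3 and Hdac8 after repeated atrophy, while Hdac11 was called lower in both (-0.79 and -0.74) and Hdac1 and Hdac2 were called higher after recovery (0.59 and 0.55). Of 6 genes of the Runx family and its partners, Cbfb, which pairs with Runx proteins on DNA, rose by 0.97 after atrophy (not called when rescaled) and 1.36 after repeated atrophy, and Tle1, a corepressor, fell by 1.15 after repeated atrophy. These were the calls of that list, and 1 of 6 higher is below the 20.3% and 28.1% of all rows. Of 7 genes whose proteins act with Dach factors, Six4 rose by 0.78 and 0.86, and Six5 by 0.81 after repeated atrophy, so that 1 and 2 of 7 were called higher, near the same shares of all rows. When rescaled neither was called, and in the block fit Six5 was not (adjusted p = 0.168), while Six2 (adjusted p = 0.0153) and Eya3 (adjusted p = 0.0317) were called there after repeated atrophy, and Six2 also when rescaled (-1.09). For atrophy the block fit called 0 genes of any of these lists.

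Over the 24 limbs, the rows most like Runx1 in log2(CPM + 1) were Cdkn1a, Aif1l and Adra1b (Pearson r of 0.978, 0.976 and 0.974 among 10610 rows with a mean of at least 1 CPM). Those most like Nr4a1 were Aldoa, Mybpc2 and Pygm (0.941, 0.94 and 0.93), and those most like Hdac4 were Fam53b, Pbxip1 and Tbcd (0.938, 0.931 and 0.929). Pde4dip stood nearest to Hdac5 (0.913), Kctd15 to Hdac9 (0.877), Spryd3 to Junb (0.893), Spef1 to Fos (0.822) and Irak3 to Egr1 (0.735). Irs2 was nearest to Nr4a3 (0.898) and the second nearest to Fos (0.712). Among the 9 genes themselves, Runx1 went with Hdac4 (r = 0.766) and against Nr4a1 (r = -0.777), and Egr1 went with Nr4a3 (0.631) and Fos (0.556). These values describe 24 limbs of 12 animals, in which the groups differ.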

How the data were processed

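The TA of 12 rats was sequenced as messenger RNA with a directional kit. Per the labels, the authors removed contaminant reads with Bowtie2 2.2.5, aligned with STAR to rn7 and processed them in Partek; the annotation and counting step are not given in the sources used here. The deposited values are CPM (columns share 1 total), although the median of ratios was named, so tests for normalized values were kept. The other 3 value columns match no sample and were not used. After 28 duplicate rows were dropped, rows above 0 in at least 3 limbs were fitted as log2(CPM + 1) in limma 3.58.1 under R 4.3.3, using an intensity trend and without a block. Sham left and right limbs were compared with the animal as a block. Sample titles name each limb's animal, so limbs are paired. The estimated correlation between limbs was 0.108, and block values are printed beside the calls they change, for lists after atrophy once. Between 89.2% and 90.8% of low values were whole multiples of 1 read (within 0.1 read), so no count test was run. P-values of the main fit measure the spread between limbs within groups and ignore the pairing. Those of the block fit measure the spread of left minus right differences between animals, 3 in each TTX group. On simulated data with 13600 genes for atrophy against control, 54% of changes of 2-fold, 88% of 4-fold and 86% of 8-fold were recovered. There were 8 false among 134 calls. Limbs were drawn there unpaired and with the spread of the control limbs, and 200 genes were changed. The real atrophy limbs spread more for Nr4a1 (log2 SD of 1.25 against 0.46 in control). These rates may therefore not hold for the real comparison. The genes and lists were chosen with earlier results of these data known. From the denervation-induced list 1 gene is not reported here. From each list the text names at most the 4 called genes with the largest change and those needed for a count. Genes named for a change under the block or rescaling, Camk2b and Camk2g were named after their values were seen. Alternatives were other pseudocounts, scalings, filters, controls, moderation and fold limits, leaving out each animal, and an exact permutation test.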

Additional observations from a re-analysis of the deposited data

Results flagged for a closer look

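Egr1 in the right TA of repeated atrophy animal 3 was at 5.73 CPM, apart from the other 8 control limbs (1.31 to 3.05 CPM). Its gap to the next limb was 0.607 of the range of the 9 limbs in CPM, above the 95% limit of Dixon's test for 9 values. The test was run on CPM only, a scale that stretches high values. On the log2(CPM + 1) scale of the other tests the limb was at 2.75, the next at 2.02 and the lowest at 1.21. Chance alone passes this limit in about 1 of 20 groups, and 9 genes were examined. The same limb had the highest Nr4a1 (248 CPM) and Junb (26.8 CPM) of the 9 control limbs, with gaps of 0.486 and 0.324 that did not pass. Its sum of macrophage and leukocyte markers was also the highest, at 134 CPM against 35.9 to 90.3 CPM in the other 8. The part of these cells was not tested.

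Nr4a1 differed between repeated atrophy and sham animals in its left minus right difference. The difference was -2.35 after repeated atrophy and 0.41 in the sham animals on the log2 scale, so that the repeated atrophy animals lay -2.76 ± 0.59 (SE) from the sham animals (adjusted p = 0.0365, 14134 rows, 616 of which passed). Atrophy and recovery animals lay -2.13 ± 0.59 and -0.85 ± 0.59 from the sham animals and did not pass (adjusted p = 0.667 and 0.804), and 0 of all rows passed in either. For Runx1 and Hdac4 the same contrast was 2.69 ± 0.79 and 1.61 ± 0.52 (adjusted p = 0.0622 and 0.0782). For Junb and Hdac9, which were also called after repeated atrophy, it was 1.18 ± 0.73 and -0.25 ± 0.40 (adjusted p = 0.329 and 0.739). The causes were not tested.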

How the results depend on the processing

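With the animal as a replicate block, and with the block and trimmed mean rescaling, 0 of 9 genes were called after atrophy, after recovery, and for recovery against atrophy and repeated atrophy against recovery, in place of 3, 1, 4 and 4. With own right limbs as control the counts were also 0 in these 4, and 3 in place of 5 after repeated atrophy. Recovery against atrophy gave 2 with log2(CPM + 10), trimmed mean, quantile or median of ratios rescaling, and 1 with only the groups compared. Leaving out each animal gave 0 to 4 after atrophy, 0 to 1 after recovery, 3 to 5 after repeated atrophy, 0 to 4 for recovery against atrophy, 3 to 4 for repeated atrophy against recovery and 0 to 1 for control against sham right limbs (Nr4a3 without sham animal 2, adjusted p = 0.0354). The whole table moved too: atrophy against control had 1 row called without atrophy animal 1 and 4841 without animal 2, and control against sham right limbs 117 without sham animal 2. Rows called ranged from 184 to 1478 after recovery and from 2573 to 5254 after repeated atrophy. For recovery against atrophy they ranged from 398 to 3704, and for repeated atrophy against recovery from 1844 to 4253. Shares of all rows are not given here for own right limbs, log2(CPM + 10) or only the groups compared. Of 2169 alternative values of single genes and comparisons, 1942 stayed on the same side of the threshold with the same sign, 112 lost and 18 gained a call, 97 uncalled values changed sign and 0 called values did. Most of the 2169 belong to results that were not called and could not lose a call. All 112 losses fell on called results, so 112 of 2169 understates how often a call was lost. Runx1 and Nr4a1 after repeated atrophy were called in 30 of 30 alternatives each (2.41 to 3.71 and -2.72 to -1.91), and the exact permutation test over limbs gave p = 0.00455 for each, the smallest that 220 splits can give. A p this small needs groups that do not overlap, which 20.4% of all rows had, so it is not separate support. That test also ignores the pairing of limbs. Hdac4 after atrophy was lost in 15 of 30 and Junb after repeated atrophy in 11 of 30. The cause of these changes was not tested. With 3 limbs against 3 an exact test cannot go below 0.1, so none was run. Few reads limit Hdac9 and Nr4a3.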

Other observations

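Sham animal 3 had high levels of the immediate early genes Nr4a3, Fos and Egr1 in both limbs, which was not tested. Nr4a3 was at 60.1 CPM in its left and 7.87 CPM in its right limb, where the other sham limbs were at 0.339 to 2.03 CPM. Fos was at 22.03 and 29.9 CPM, Egr1 at 7.65 and 13.6 CPM and Runx1 at 25.6 and 20.9 CPM in its left and right limb. The other sham limbs were at 4.39 to 12.2 CPM for Fos, 1.79 to 6.02 CPM for Egr1 and 2.81 to 9.16 CPM for Runx1. Junb in the same animal was at 29.2 and 30.6 CPM, nearer to the other sham limbs (15.2 to 25.2 CPM). Its Nr4a1 was at 195 and 124 CPM, against 102 to 151 CPM in the other sham limbs, and its Hdac9 at 0.202 and 1.33 CPM. This animal was the sham animal of the repeated atrophy time point, and with 1 sham animal at each time point, animal and time cannot be told apart.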
